A study of Homo sapiens with 6 samples.

Results

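Genes of mitosis, 10 in number, were followed by name in the RNA of thyroid cancer cells with and without siRNA against GDF15: BUB1, BUB1B, MAD2L1 and TTK of the spindle checkpoint, the kinases AURKA, AURKB and PLK1, the activator CDC20, and BIRC5 and INCENP of the chromosomal passenger complex. All 10 were found by gene name among the 34738 genes of the deposited table, each under 1 Ensembl identifier. The labels name KHM-5M, a human thyroid cancer cell line, for all 6 libraries, whereas a figure legend of the study names TPC-1, another thyroid cancer line, for its plot of genes regulated by GDF15, so the line is given here as labelled. The NC group (genotype control, 3 libraries) was compared with the siGDF15 group (genotype GDF15, 3 libraries), in which the cells carried an siRNA against GDF15, a secreted cytokine of the TGF-β family. The deposited description calls the controls a blank control and the study's methods call them negative control cells and list a negative control siRNA, so whether the NC cells received an siRNA is not settled, and any effect of transfection cannot be told apart from that of GDF15 silencing. One line and 1 siRNA were used, and each difference below is between these 2 groups of cultures.

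The spindle assembly checkpoint holds cells in metaphase until every kinetochore has attached to the spindle. TTK (also called MPS1) starts the signal and recruits BUB1 and BUB1B, and MAD2L1 and BUB1B, together with BUB3, capture CDC20, so that the anaphase-promoting complex (APC/C), a ubiquitin ligase, cannot yet act on cyclin B and securin. The passenger complex, made of AURKB, INCENP, BIRC5 and CDCA8, corrects faulty attachments, while AURKA and PLK1 drive centrosome maturation and spindle assembly. Transcripts of these genes are known to rise in late cell cycle phases of dividing cells and to be low in cells that have left the cycle. In bulk RNA, fewer cells in these phases and less of each transcript per cell cannot be told apart.

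Expected counts, estimated by the authors from transcript coverage, summed to between 51738814 and 68025163 per library, with the lowest total in siGDF15 replicate 2. Mitochondrial genes held 6.39 to 6.78% of counts in NC and 8.53 to 9.17% in siGDF15, and the part of this difference in the results was not tested. Of 8 thyroid lineage markers, 3 had a mean of at least 1 FPKM (fragments per length of transcript and per total of mapped fragments). These were PAX8, FOXE1 and HHEX. TSHR was not among the genes listed, and TG, SLC5A5 and NKX2-1 stayed under 0.22 FPKM in every library. The summed level of the thyroid markers was 61.5 to 71.9 FPKM in NC and 83.0 to 86.3 FPKM in siGDF15. All 5 epithelial markers had a mean of at least 1 FPKM, with sums of 102 to 149 FPKM in NC and 126 to 136 FPKM in siGDF15. Leukocyte and endothelial markers summed to at most 0.739 and 0.198 FPKM in any library, and no marker of these lists reached a mean of 1 FPKM. GDF15 (ENSG00000130513) was at 22.4, 19.3 and 23.1 FPKM in NC and at 10.8, 10.5 and 10.7 FPKM in siGDF15. Its transcript fell to 52.9% of the NC level (95% confidence interval 46.7 to 60.0%, adjusted p = 2.4e-05 from edgeR's quasi-likelihood test).

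All 10 mitotic genes were lower in siGDF15, at between 26.4% and 40.5% of their NC level. Each passed edgeR's quasi-likelihood test, with adjusted p-values (Benjamini-Hochberg, across all 11867 genes whose mean reached 1 FPKM) from 4.3e-07 to 5.5e-06. Of all tested genes, 31.4% were lower at an adjusted p under 0.05. Each of the 10 also had a log2 fold change of -1 or less, a fall that 4.78% of tested genes showed with the same adjusted p. In FPKM, every siGDF15 library lay below every NC library for all 10 genes, which held for 42.8% of tested genes. The median log2 fold change was -1.62 over the 10 genes and 0.003 over all tested genes. The summed FPKM of the 10 genes was 383, 357 and 409 in NC and 131, 116 and 117 in siGDF15. This sum went from 383 ± 26.1 to 121 ± 8.27 FPKM (SD, n = 3), which is 31.7% of the NC mean.

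**Figure D1:**
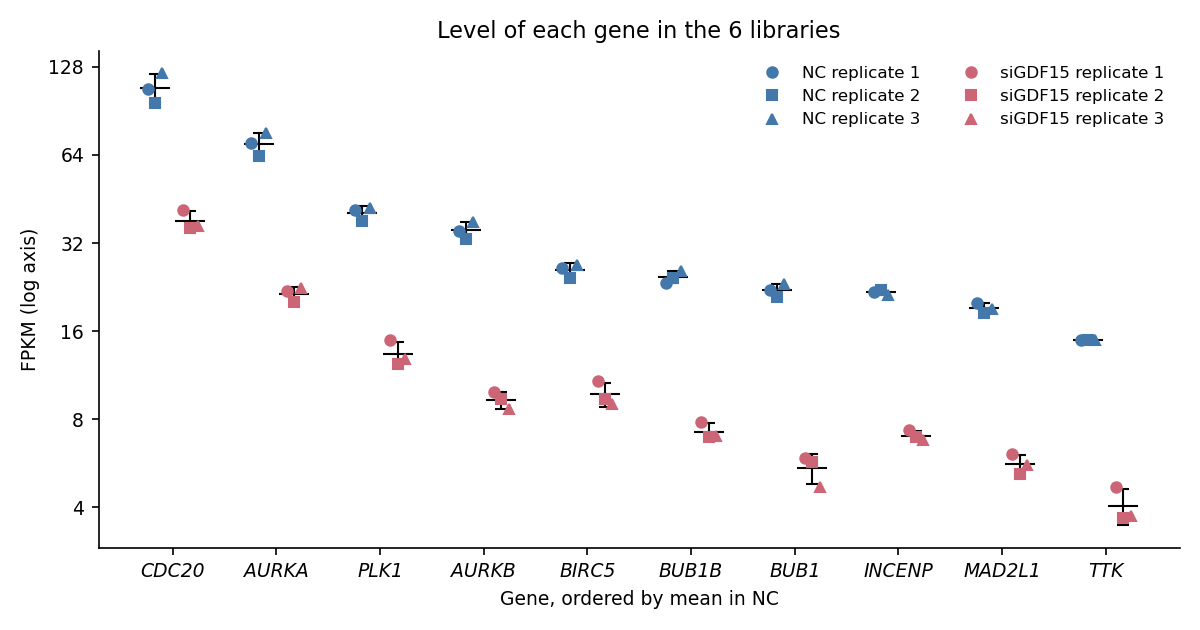
FPKM on a log axis for each gene, ordered by its mean in NC, with 1 point per library (shape: replicate number; blue: NC, red: siGDF15) and the mean ± SD of 3 libraries in black. The 3 siGDF15 points of each gene lie below its 3 NC points, from CDC20 (109 against 38.1 FPKM) to TTK (14.9 against 4.04 FPKM).

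Among the checkpoint genes, BUB1 fell most. BUB1 (ENSG00000169679, chromosome 2 from 110637528 to 110678063 in GRCh38, as for all positions here, minus strand), a kinase that marks the inner centromere for the passenger complex, had 22.1, 21.0 and 23.2 FPKM in NC and 5.88, 5.71 and 4.69 FPKM in siGDF15. The groups were far apart, with the lowest NC library 3.57 times the highest siGDF15 library, and siGDF15 replicate 3 was the lowest of all. Its log2 fold change was -1.92 (SE 0.092, adjusted p = 1.2e-06 from edgeR), the 38th lowest of the 11867 tested genes. BUB1B (ENSG00000156970, chromosome 15 from 40161023 to 40221123), which encodes BUBR1, the subunit that keeps CDC20 from activating the APC/C, had 23.4, 24.3 and 25.7 FPKM in NC and 7.83, 6.93 and 6.98 FPKM in siGDF15. The groups did not overlap, and the log2 fold change was -1.65 (SE 0.064, adjusted p = 6.1e-07 from edgeR). MAD2L1 (ENSG00000164109, chromosome 4 from 120055623 to 120066858, minus strand), whose product MAD2 closes around CDC20, had 19.97, 18.5 and 19.0 FPKM in NC and 6.06, 5.20 and 5.59 FPKM in siGDF15. The lowest NC library was 3.06 times the highest siGDF15 library. Its log2 fold change of -1.66 (SE 0.063, adjusted p = 5.8e-07 from edgeR) differed from that of BUB1B by less than either standard error. TTK (ENSG00000112742, chromosome 6 from 80003887 to 80042527), the kinase that starts checkpoint signalling, had 14.9, 14.9 and 15.0 FPKM in NC and 4.70, 3.68 and 3.74 FPKM in siGDF15. It had the lowest mean of the 10 genes in both groups. Its NC libraries differed by under 1%, whereas siGDF15 replicate 1 stood above the other siGDF15 libraries. The log2 fold change of TTK was -1.78 (SE 0.093, adjusted p = 1.8e-06 from edgeR).

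Of the 3 mitotic kinases, AURKB fell most. AURKA (ENSG00000087586, chromosome 20 from 56369389 to 56392295, minus strand), the kinase of centrosomes and spindle poles, had 70.1, 63.6 and 76.0 FPKM in NC and 21.9, 20.1 and 22.4 FPKM in siGDF15. In both groups replicate 2 was the lowest library, and the groups did not overlap. Its log2 fold change was -1.60 (SE 0.074, adjusted p = 1.1e-06 from edgeR). AURKB (ENSG00000178999, chromosome 17 from 8204733 to 8210600, minus strand), the catalytic subunit of the passenger complex, had 35.2, 33.0 and 37.9 FPKM in NC and 9.87, 9.36 and 8.64 FPKM in siGDF15. The lowest NC library was 3.34 times the highest siGDF15 library. The log2 fold change was -1.82 (SE 0.078, adjusted p = 8.2e-07 from edgeR). PLK1 (ENSG00000166851, chromosome 16 from 23677656 to 23690366), which acts from mitotic entry to cytokinesis, had 41.5, 38.2 and 42.0 FPKM in NC and 14.9, 12.3 and 12.9 FPKM in siGDF15. All siGDF15 libraries were below all NC libraries, with replicate 1 the highest of them. The log2 fold change was -1.498 (SE 0.074, adjusted p = 1.5e-06 from edgeR).

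CDC20 and BIRC5 had the smallest falls of the 10 genes. CDC20 (ENSG00000117399, chromosome 1 from 43358981 to 43363203), the APC/C activator that the checkpoint restrains, was the most abundant, at 108, 96.6 and 122 FPKM in NC and 41.6, 36.0 and 36.7 FPKM in siGDF15. The groups did not overlap, although the NC libraries spread more widely than for the other genes, with an SD of 11.6% of the mean. The log2 fold change was -1.41 (SE 0.092, adjusted p = 5.5e-06 from edgeR). BIRC5 (ENSG00000089685, chromosome 17 from 78214186 to 78225636), which encodes survivin, the subunit that brings the passenger complex to centromeres and a member of the inhibitor of apoptosis family, had 26.2, 24.3 and 27.0 FPKM in NC and 10.8, 9.40 and 9.03 FPKM in siGDF15. The lowest NC library was 2.26 times the highest siGDF15 library. Its log2 fold change of -1.30 (SE 0.076, adjusted p = 3.1e-06 from edgeR) has a 95% confidence interval of -1.48 to -1.13. INCENP (ENSG00000149503, chromosome 11 from 62123998 to 62153169), the scaffold that binds and activates AURKB, had 21.7, 22.2 and 21.3 FPKM in NC and 7.33, 6.92 and 6.78 FPKM in siGDF15. Its replicates were close in both groups, and its log2 fold change of -1.53 had the smallest standard error of the 10 (SE 0.050, adjusted p = 4.3e-07 from edgeR).

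**Figure D2:**
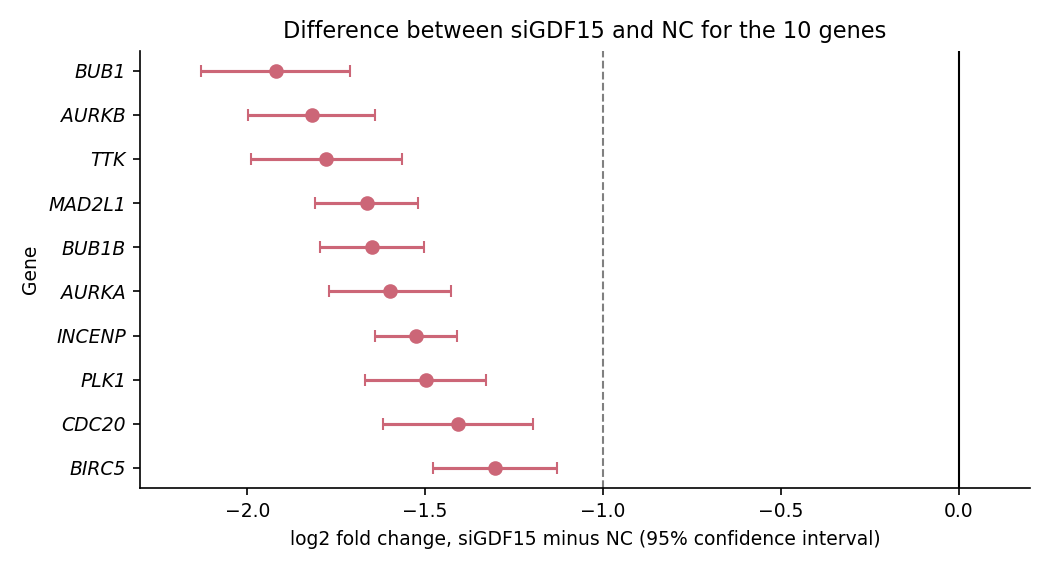
log2 fold change (siGDF15 minus NC) of each gene from edgeR, with its 95% confidence interval as a bar, ordered from the largest fall to the smallest. The dashed line marks -1. All intervals lie below it, from BUB1 (-1.92, interval -2.13 to -1.71) to BIRC5 (-1.30, interval -1.48 to -1.13).

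Read counts did not limit these values. The expected counts of the 10 genes ranged from 973 (TTK in siGDF15 replicate 2) to 18339 (CDC20 in NC replicate 3), where 1 read pair corresponds to about 4 counts and the limit that a count of 0 allows is 12 counts, for counting error only. The libraries within a group were not equal. NC replicate 3 was the highest NC library for 8 of the 10 genes and NC replicate 2 the lowest for 7. In siGDF15, replicate 1 was the highest for 9 of the 10 genes. Other annotated genes overlap BUB1B (PAK6) and PLK1 (ERN2 and ENSG00000261266). None of the 3 exceeded 65 counts in any library.

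The order of the levels was similar in both groups. FPKM, which is scaled by length, placed CDC20 first in NC with 109 ± 12.6 FPKM (SD, n = 3), followed by AURKA with 69.9 ± 6.18, PLK1 with 40.6 ± 2.09 and AURKB with 35.3 ± 2.45 FPKM. BIRC5, BUB1B, BUB1, INCENP, MAD2L1 and TTK followed, with means between 25.8 and 14.9 FPKM. The ranges of the neighbours BIRC5 and BUB1B overlapped, as did those of BUB1 and INCENP, and the other neighbours were apart. In siGDF15, CDC20 (38.1 ± 3.01 FPKM), AURKA (21.5 ± 1.23) and PLK1 (13.4 ± 1.33) kept the first places. AURKB at 9.29 and BIRC5 at 9.73 FPKM overlapped there, as did BUB1B at 7.25 and INCENP at 7.01 FPKM. BUB1 at 5.43 FPKM overlapped its neighbours MAD2L1 (5.62 FPKM) and TTK (4.04 FPKM).

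Partners among the 10 genes, in 5 pairs, were compared within each library. The ratio of AURKA to AURKB FPKM was 1.99, 1.93 and 2.01 in NC and 2.22, 2.14 and 2.59 in siGDF15. All siGDF15 values were above all NC values, and the log2 ratio was higher by 0.23 in siGDF15. BUB1 to BUB1B was 0.943, 0.862 and 0.905 in NC and 0.751, 0.824 and 0.671 in siGDF15, a difference of -0.28 in the log2 ratio. For the checkpoint inhibitor against its target, MAD2L1 to CDC20, the ratio was 0.185, 0.192 and 0.156 in NC and 0.146, 0.144 and 0.152 in siGDF15. These groups did not overlap, but NC replicate 3 was close to the siGDF15 libraries, and the log2 difference was -0.26. BIRC5 to INCENP was 1.21, 1.09 and 1.27 in NC and 1.47, 1.36 and 1.33 in siGDF15, a log2 difference of 0.22. TTK to PLK1 was 0.359, 0.390 and 0.356 in NC and 0.316, 0.298 and 0.291 in siGDF15, a log2 difference of -0.29. For each of the 5 pairs the exact permutation test gave p = 0.1 (two-sided, adjusted p = 0.1 over 5 pairs), the smallest that 3 libraries against 3 allow, so unequal falls within pairs could not pass a threshold of 0.05. These differences were small beside the falls themselves.

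**Figure D3:**
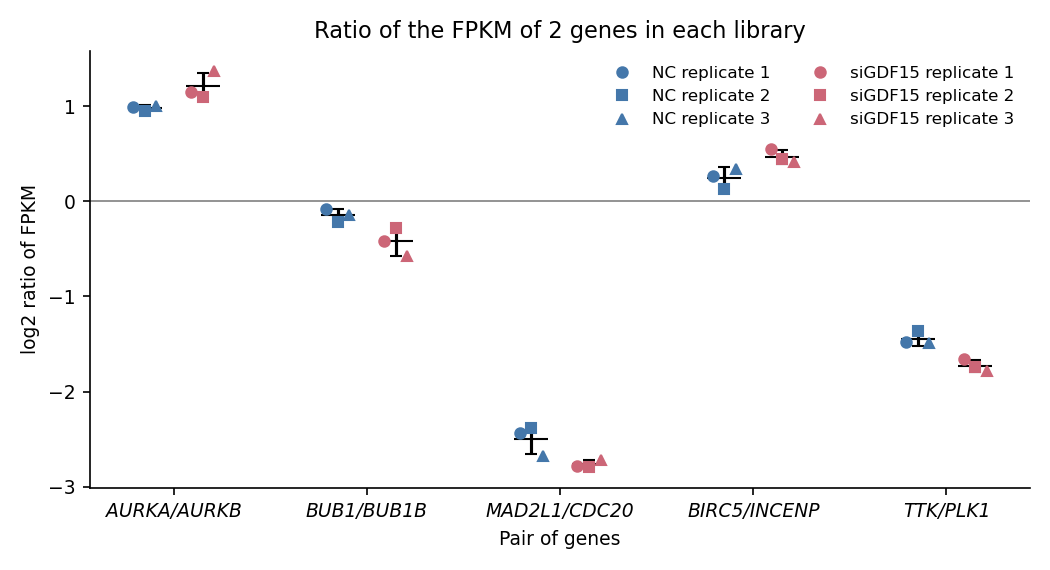
log2 ratio of the FPKM of the first to the second gene of each pair, with 1 point per library (shape: replicate number; blue: NC, red: siGDF15) and the mean ± SD of 3 libraries in black. The groups are apart for all 5 pairs, by 0.22 to 0.29 in either direction between their means.

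Subunits of the same complex fell to different degrees. In the mitotic checkpoint complex, the log2 fold changes were -1.66 for MAD2L1, -1.65 for BUB1B and -1.41 for CDC20. BUB3, the remaining subunit, which also has roles outside mitosis, fell by 0.75 on the log2 scale, from 22.7 ± 0.734 to 12.6 ± 0.828 FPKM (SD, n = 3). Its 95% confidence interval of -0.88 to -0.61 lay apart from those of the other subunits, of which that of CDC20 came closest (-1.62 to -1.20). In the passenger complex, CDCA8 (borealin) fell by 1.95 on the log2 scale, from 36.8 ± 3.51 to 8.88 ± 1.48 FPKM (SD, n = 3), with an interval of -2.22 to -1.67 that overlapped that of AURKB (-2.00 to -1.64) and did not reach those of INCENP (-1.64 to -1.41) and BIRC5. BUB3 and CDCA8 were singled out after their values were seen, and differences between subunits were not tested further.

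Genes that work with the 10 were described from lists, beside 31.4% lower and 30.0% higher of all tested genes at an adjusted p under 0.05. Of 9 checkpoint partners, 6 were lower, none was higher and 3 did not pass, with a median log2 fold change of -1.19. Those with the smallest adjusted p were ZWILCH, of the complex that brings dynein to kinetochores (log2 fold change -1.58, adjusted p = 1.8e-06 from edgeR), and KNL1, the kinetochore scaffold to which BUB1 and BUB1B dock (-1.91, adjusted p = 2.0e-06). The 3 that did not pass, named after their values were seen, were MAD1L1 (6.46 FPKM in NC and 6.59 in siGDF15, log2 fold change 0.13, adjusted p = 0.071), ZW10 (-0.17, adjusted p = 0.083) and MAD2L1BP (0.07, adjusted p = 0.30). MAD1L1 anchors MAD2 at kinetochores, and ZW10 also acts in vesicle transport. ZW10 passed under 3 of 15 other settings and the sign of MAD2L1BP turned under 3. Of 8 cofactors of the Aurora kinases, PLK1 and the passenger complex, 7 were lower and 1 was higher. TPX2, which activates AURKA on spindle microtubules, went from 84.7 ± 3.55 to 25.2 ± 1.68 FPKM (SD, n = 3). This is -1.64 on the log2 scale (adjusted p = 5.5e-07 from edgeR). SGO2, a protector of centromeric cohesin, had -1.92. The gene that was higher was AJUBA, a LIM domain protein that binds AURKA and also acts at cell junctions (0.55, adjusted p = 0.0054).

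Of 17 other mitotic kinases and paralogs, 16 were tested, of which 12 were lower, 3 higher and 1 did not pass. Over all tested genes the shares were 31.4% lower and 30.0% higher. AURKC, the Aurora paralog of germ cells, had a mean of 0.105 FPKM in NC and 0.298 FPKM in siGDF15 and was not tested. CDK1, the kinase that drives mitotic entry, had a log2 fold change of -1.87 and MELK one of -1.72 (adjusted p = 2.8e-07 and 3.5e-07 from edgeR). The paralogs of PLK1 went different ways. PLK4, which controls centriole duplication, fell by 1.71 on the log2 scale, while PLK2, a stress-responsive paralog, rose from 79.6 ± 18.9 to 139 ± 0.335 FPKM (SD, n = 3). This is 0.91 on the log2 scale (adjusted p = 0.0010 from edgeR). PLK3 had a log2 fold change of 0.18 (adjusted p = 0.14). NEK6 rose by 0.50 on the log2 scale and NEK9, which activates it, by 0.44, whereas NEK2, a kinase of centrosome separation, fell by 1.76. NEK7 went the other way from NEK6 and NEK9, from a mean of 16.8 FPKM in NC to 9.43 FPKM in siGDF15. Its log2 fold change was -0.73 (adjusted p = 6.7e-05 from edgeR). PLK4, NEK2, NEK7 and NEK9 were named after their values were seen.

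The core of the APC/C moved little. Of its 14 subunits, 7 were lower, 2 higher and 5 did not pass, and none had a log2 fold change beyond -1 or 1 (median -0.15, range -0.65 to 0.42). Over all tested genes 31.4% were lower and 30.0% higher at the same threshold. ANAPC2, the cullin subunit, had -0.65 (adjusted p = 3.1e-05 from edgeR), ANAPC5 -0.34, ANAPC16 0.42 and CDC16 0.27. The number of lower core subunits fell to 3 without NC replicate 1 and to 4 without siGDF15 replicate 1 or siGDF15 replicate 3. It was 9 with library totals in place of TMM normalization and under both limma fits. Of 9 APC/C activators, inhibitors, ubiquitin-conjugating enzymes and substrates, 8 were lower, none was higher and 1 (UBE2D1) did not pass, with a median of -1.30. UBE2C, the enzyme that starts ubiquitin chains for the APC/C, went from 102 ± 4.46 to 27.5 ± 2.87 FPKM (SD, n = 3), with a log2 fold change of -1.78, and the inhibitor FBXO5 (EMI1) had -1.48. FZR1 (CDH1), the activator that replaces CDC20 at mitotic exit, had -0.33, at 13.2 ± 0.293 FPKM in NC against 9.72 ± 0.421 (SD, n = 3; named after its value was seen). CCNB1 and PTTG1, the cyclin B and securin that CDC20 targets, fell by 1.46 and 1.14 on the log2 scale (both named after their values were seen).

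Phosphatases that oppose the mitotic kinases showed no common direction. Of 16 subunits and regulators of PP1 and PP2A, 6 were lower, 4 higher and 6 did not pass (median -0.01), where 31.4% of all tested genes were lower and 30.0% higher. Of the higher genes, PPP2R5C (0.15, adjusted p = 0.026 from edgeR; named after its value was seen) lost its call under 9 of 15 other settings. PPP2R1B, a scaffold subunit of PP2A, had the largest fall, -1.19 (adjusted p = 2.0e-06 from edgeR), while its more abundant paralog PPP2R1A had 45.1 FPKM in NC and 44.6 in siGDF15 (log2 fold change 0.09, adjusted p = 0.10, with the sign turned under 3 settings; named after its values were seen). Of the B56 subunits, which bind BUBR1 at kinetochores, PPP2R5D had -0.50, PPP2R5A 0.44 and PPP2R5B 0.68. The relatives of BIRC5 moved in both directions. Of 6 other inhibitor of apoptosis genes, 4 were tested, without BIRC7 and NAIP. BIRC3 (1.22, adjusted p = 8.9e-05) and BIRC6 (0.27, adjusted p = 0.0018) were higher, BIRC2 was lower (-0.18, adjusted p = 0.011) and XIAP did not pass (0.06, adjusted p = 0.57, with the sign turned under 4 settings). BIRC3, an NF-κB target, rose from 6.17 ± 1.18 to 13.4 ± 1.39 FPKM (SD, n = 3). The call of BIRC2 was lost without siGDF15 replicate 2 or siGDF15 replicate 3, and that of BIRC6 under both limma fits.

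For comparison, all 13 mitotic kinesins tested were lower, with a median log2 fold change of -1.63 (range -1.95 to -1.39), and all 7 MCM genes, of DNA replication, were lower, with a median of -1.22 (range -1.75 to -1.02). The kinesins with the smallest adjusted p were KIFC1 (-1.82) and KIF2C (-1.63), and the MCM genes MCM10 (-1.75) and MCM3 (-1.30). The range of the 10 mitotic genes, -1.92 to -1.30, lay almost within that of the kinesins and overlapped that of the MCM genes. Among all tested genes 31.4% were lower. No test of a difference between these lists was made.

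**Figure D4:**
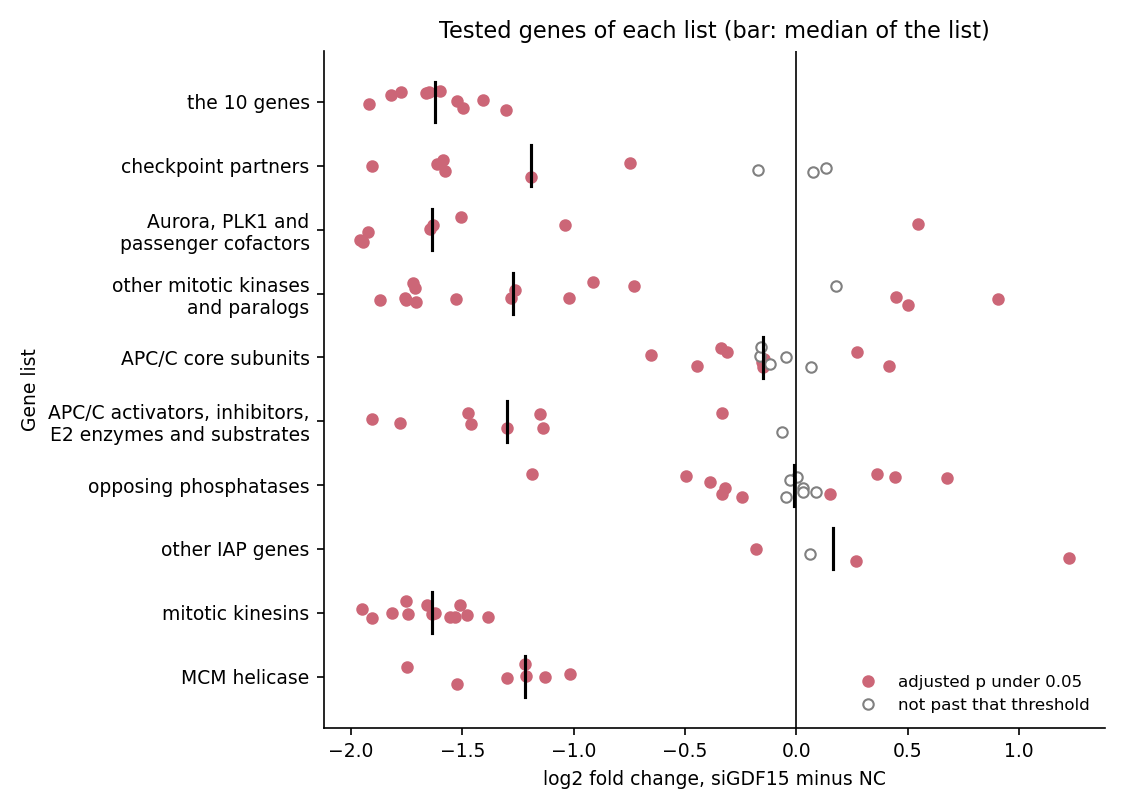
log2 fold change (siGDF15 minus NC) of every tested gene of each list, with 1 point per gene (filled red: adjusted p under 0.05; open grey: not past it), spread vertically for legibility, and the median of each list as a black bar. The 10 genes (median -1.62), the kinesins (-1.63) and the MCM genes (-1.22) lie wholly below -1, while the APC/C core (-0.15) and the opposing phosphatases (-0.01) lie around 0.

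Promoter letters are shown because the 10 genes moved together. RefSeq windows of 250 bases before to 50 after the start of transcription (GRCh38.p14) were at hand for 7 of the 10 genes. They were searched on both strands for the letters TTTGAA, those of the cell cycle genes homology region known from promoters of late cell cycle genes, and for CCAAT, the box bound by NF-Y. TTTGAA was found for 5 of the 7 genes (CDC20, MAD2L1, INCENP, BUB1B and PLK1) and in 15.2% of all 35116 windows. CCAAT was found for 6 of the 7 and in 34.6% of windows. The starts used are those of RefSeq and can differ from the gene positions given above. Relative to those positions, the stretch shown lies inside the gene wholly for PLK1 and MAD2L1 and partly for BUB1B and INCENP. The stretches below run 5′ to 3′ on the strand of the gene, with both motifs, on either strand, in capitals. They are the 100 bases before the start, at chr1:43358881-43358980 (plus strand) for CDC20, chr16:23678789-23678888 (plus strand) for PLK1, chr15:40160969-40161068 (plus strand) for BUB1B, chr11:62123911-62124010 (plus strand) for INCENP and chr2:110678064-110678163 (minus strand) for BUB1, and 30 bases around the motif after the start, at chr4:120066807-120066836 (minus strand), for MAD2L1.
CDC20: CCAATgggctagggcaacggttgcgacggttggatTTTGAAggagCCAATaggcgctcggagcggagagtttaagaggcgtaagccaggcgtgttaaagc
PLK1: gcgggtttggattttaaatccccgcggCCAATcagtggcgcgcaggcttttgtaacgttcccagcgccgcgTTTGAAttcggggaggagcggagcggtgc
BUB1B: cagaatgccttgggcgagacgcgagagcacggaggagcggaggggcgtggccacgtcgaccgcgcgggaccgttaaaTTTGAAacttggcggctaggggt
INCENP: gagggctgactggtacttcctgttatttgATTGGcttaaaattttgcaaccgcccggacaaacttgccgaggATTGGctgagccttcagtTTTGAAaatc
MAD2L1: tgcgtcgttactTTTGAAacgcttggcggg
BUB1: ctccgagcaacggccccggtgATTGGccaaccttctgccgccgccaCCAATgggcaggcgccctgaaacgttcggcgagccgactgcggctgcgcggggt

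Counted from the start, TTTGAA began 65 bases before it in CDC20 (with another match on the opposite strand at -178, outside the printed stretch), 29 in PLK1, 23 in BUB1B and 10 in INCENP, and at base 25 after it in MAD2L1. BUB1, the gene with the largest fall, and AURKB had no TTTGAA in their windows but held CCAAT, which BUB1B did not. A match of letters is a description of these windows only. The 3′UTRs of the 10 genes (GENCODE release 29) were also searched for CTCATTC, the 7 letters complementary to bases 2 to 8 of the antisense strand of the GDF15 siRNA. BUB1B and MAD2L1 held it in at least 1 annotated transcript, as did 17.2% of the 10575 tested genes with an annotated 3′UTR. Their log2 fold changes, -1.65 and -1.66, lay inside the range of the 8 genes without it. The part of these sites in the falls was not tested.

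In the annotation of the deposited table, 6 of the 10 genes are assigned to the KEGG cell cycle pathway (BUB1, BUB1B, MAD2L1, TTK, PLK1 and CDC20) and 5 to oocyte meiosis. AURKA, AURKB, BIRC5 and INCENP carry no assignment to the cell cycle pathway there. Under the Reactome terms with the most of them, 8 of the 10 genes stand together, without TTK and AURKA.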

How the data were processed

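Poly(A) RNA of 3 NC and 3 siGDF15 cultures, called biological replicates in the study's methods, was sequenced as read pairs of 150 bases. The processing notes name fastp, HISAT2, StringTie and edgeR for GRCh38 without versions. The authors deposited FPKM per gene, scaled by transcript length and mapped fragments, and expected counts, whole numbers estimated from coverage and not normalized. Columns were matched to libraries by title, and none with per-library values was left out. Among counts from 1 to 20 the most frequent was 4, taken as 1 read pair. The level of 1 thyroid marker is not reported here. A GENCODE release 29 annotation of GRCh38 was used only for 3′UTRs.

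Genes with a mean of at least 1 FPKM were tested on the expected counts, rounded to whole numbers, with edgeR 4.0.16 (TMM normalization, quasi-likelihood test, two-sided, Benjamini-Hochberg adjustment over all 11867). Calls needed an adjusted p under 0.05, and the fold threshold was 1 on the log2 scale. Standard errors came from the fold change and its F statistic. Pairs of genes, and the FPKM of each mitotic gene alone, were compared by exact permutation over libraries. R 4.3.3, limma 3.58.1, DESeq2 1.42.0, Python 3.11.15, scipy 1.17.1 and matplotlib 3.10.9 were used.

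The 10 genes, the pairs and the other lists were chosen with earlier results of these data known, so no set test was made. Named from each list were the 2 lower and the 2 higher called genes with the smallest adjusted p, and others where the text says so. Outside this rule, AURKC, BIRC7 and NAIP, which were not tested, and PLK3, UBE2D1 and XIAP, which were not called, were also named. The alternatives were other normalizations, filters and tests, counts divided by 4, the replicate block and each library left out in turn.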

Additional observations from a re-analysis of the deposited data

How the results depend on the processing

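All 10 mitotic genes were lower at an adjusted p under 0.05, with a log2 fold change of -1 or less, under each of the 15 alternatives. The largest adjusted p of any of them was 0.00012, for CDC20. GDF15 also kept its direction and its adjusted p under 0.05 under all 15. Its log2 fold change in the main fit was -0.92, short of the fold threshold. The median of the 10 genes was -1.73 with library totals in place of TMM and -1.72 with limma on log2(FPKM + 0.1), settings under which all tested genes had a median of -0.10 in place of 0.003, and it lay between -1.66 and -1.57 with each library left out. Without TMM 2701 tested genes were higher and 4679 lower (36.6% of calls higher), against 3565 and 3721 (48.9%) with it. With a pseudocount of 1, the log2 ratio of MAD2L1 to CDC20 differed by -0.12 and that of TTK to PLK1 by -0.13 between the groups, since the pseudocount weighs more on the less abundant gene. Lower APC/C core subunits numbered 3 to 8, and lower genes of the inhibitor of apoptosis family 0 to 1, with each library left out; limma with either pseudocount called 1 of that family higher in place of 2.

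Libraries with the same number did not deviate together from their group means (correlations across genes 0.028, -0.075 and 0.046), and NC replicate 1 was nearest to siGDF15 replicate 2, so the numbers were not taken as pairs. With a replicate block the median of the 10 genes was -1.62, all 10 stayed lower, and 3515 tested genes were lower and 3391 higher. With 3 libraries per group, neither unequal falls between partners nor the falls of single genes could reach significance by exact permutation.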

Other observations

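The genes whose profile over the 6 libraries was most like the mean profile of the 10 mitotic genes were ranked by the root mean square difference between centred log2 CPM values, which are counts scaled by library size. The nearest were TPX2, a spindle assembly factor (0.020), MTHFD2, a mitochondrial enzyme of folate metabolism (0.022), KIF23, a kinesin of the cytokinetic midzone (0.024), NCAPG2, a condensin II subunit (0.037), and ANLN, the contractile ring protein anillin (0.039). The median difference over all tested genes was 0.822, and the 10 genes themselves lay between 0.041 for BUB1B and 0.173 for BUB1. MTHFD2, whose known role is not in mitosis, went from 25.0 ± 1.10 FPKM in NC to 7.73 ± 0.451 (SD, n = 3). Its log2 fold change was -1.59 (adjusted p = 5.6e-07 from edgeR). ANLN had 66.1 ± 1.72 and 19.2 ± 1.55 FPKM (SD, n = 3), with a log2 fold change of -1.67. The ranking is a description over 6 libraries, most of whose variation is between the groups.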
